A study of Mus musculus with 4 samples.

Results

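The 8 genes described here are the glucocorticoid receptor gene Nr3c1, 5 genes counted among the common targets of that receptor (Fkbp5, Sgk1, Tsc22d3, Zbtb16 and Cdkn1a), and the metallothionein genes Mt1 and Mt2. They were chosen by name and by role, with earlier results of these data known, and all 8 were among the 32285 genes of the deposited tables. Each was followed as unique molecular identifiers (UMIs, 1 per captured RNA molecule) in every marker-defined cell class and library of a single-cell study of mouse cortex.

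The animals were male C57BL/6N mice, 10 months old at the end point. Each group was 1 library made from the pooled tissue of 4 to 5 mice. A sham-operated group had received isotype control antibody, and the 3 stroke groups had received isotype control antibody, anti-VCAM1 or anti-VLA4, in each case for 10 weeks. Stroke was a distal occlusion of the middle cerebral artery (dMCAO), and tissue came from the infarct core and about 2 mm of cortex around it. Cells had been stained for CD31, an endothelial surface protein, and CD45, a leukocyte surface protein, with dead cells excluded, so the classes are those of a stained suspension and not of the whole cortex. VCAM1 is an adhesion molecule of activated endothelium, and VLA4 is the integrin by which leukocytes bind it.

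Glucocorticoids enter cells freely and bind the receptor encoded by Nr3c1, which waits in the cytoplasm in a complex with heat shock proteins and moves to the nucleus once it holds hormone. There it binds DNA, often at an inverted repeat of a short half-site, and raises or lowers nearby genes. Several of its targets feed back on the response: Fkbp5 encodes a co-chaperone that lowers the receptor's affinity for hormone, and Tsc22d3 encodes GILZ, which restrains inflammatory transcription factors. Metallothioneins are small cysteine-rich proteins that bind zinc and copper; their genes respond to metal through the factor MTF1 and also to glucocorticoids and oxidative stress, and in brain they are known above all from astrocytes.

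After filters, 1516 cells of the sham library, 2832 of stroke with isotype, 4662 of stroke with anti-VCAM1 and 6209 of stroke with anti-VLA4 were kept, with 9892316, 16805668, 24441959 and 33386331 UMIs and median totals of 4516.5 to 5466 UMIs per cell. Library sizes and group coincide, and with 1 library per group no test across animals exists: intervals below are 95% exact intervals that cover counting error only. Across the 4 libraries, 70 cell barcodes occurred in 2 libraries and 1 occurred in 3. Of 25 clusters, 23 were named from marker genes. Clusters named endothelial-like and microglia-like detected their class's markers, and cluster 12, with endothelial and pericyte markers, and cluster 15, with monocyte and dendritic markers, stayed unnamed. Microglial markers summed to 14350 to 15190 CPM (a gene's UMIs scaled to 1000000 UMIs of the class) in microglia-like cells and to 78.7, 337, 151 and 135 CPM in endothelial-like cells. Endothelial-like cells numbered 551, 648, 2381 and 3048, microglia-like cells 690, 1474, 1813 and 2458, border-macrophage-like cells 120, 196, 61 and 92, and T-cell-like cells 73, 248, 112 and 202, with the sham library first, then stroke with isotype, then the anti-VCAM1 and anti-VLA4 libraries. Every list of 4 values below is in that order. Ratios were formed for these 4 classes, and B-cell-like (170 cells), pericyte-like (169), astrocyte-like (100), plasma-cell-like (35) and neutrophil-like cells (30) were pooled over libraries for levels only.

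The receptor gene was found in every class. Nr3c1 stood at 502 CPM in T-cell-like cells, 335 in microglia-like, 319 in endothelial-like and 254 in border-macrophage-like cells over all libraries. Pericyte-like cells at 228 CPM, astrocyte-like at 235, B-cell-like at 230 and neutrophil-like at 205 lay close together, and plasma-cell-like cells were lowest at 87.8. Microglia-like and endothelial-like cells are neighbours in this order whose libraries overlapped, with 323 to 350 and 310 to 367 CPM. The T-cell-like libraries, at 396 to 691 CPM, all lay above both.

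Fkbp5 was higher in most leukocyte classes than in vessel cells, with plasma cells as the exception. It was highest in microglia-like cells at 160 CPM, followed by border-macrophage-like cells at 105, T-cell-like cells at 89.9, neutrophil-like cells at 84.0 and B-cell-like cells at 43.2. Astrocyte-like cells held 23.7 CPM, and plasma-cell-like (7.32), pericyte-like (7.28) and endothelial-like cells (6.202) were lowest. Each microglia-like library, from 153.7 to 166 CPM, lay above each endothelial-like one, from 5.13 to 11.1. Border-macrophage-like and T-cell-like libraries overlapped, at 76.6 to 121 and 65.1 to 99.9 CPM.

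Sgk1 encodes a kinase that acts on ion channels and transporters. Its level was 280 CPM in microglia-like cells and 160 in endothelial-like cells, with libraries at 254 to 322 and 134 to 171 that did not overlap. Pericyte-like cells held 89.1 CPM, border-macrophage-like cells 73.9, B-cell-like cells 63.8, astrocyte-like cells 54.6, T-cell-like cells 49.8, and neutrophil-like and plasma-cell-like cells 36.7 and 36.6. From border macrophages down, neighbours in this order were not separated by their libraries or counting intervals. Among the members with RefSeq promoter windows (GRCm38.p6, 250 bases before to 50 after an annotated start), 1 Sgk1 window held the full palindrome to which the receptor binds, and it is shown for that reason, with the palindrome in capitals and the plus strand written at chr10:21993677-21993736.
Sgk1: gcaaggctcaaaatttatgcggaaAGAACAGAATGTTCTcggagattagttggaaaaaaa
The palindrome begins 189 bases before that start site. Both strands were searched for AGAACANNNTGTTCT, which 3 of 32851 windows held, or 0.00913%, and for its shorter core GAACANNNTGTTC, which 19 held, or 0.0578%; the core lies inside the longer motif. The single half-site TGTTCT, which overlaps both, was in 19.0% of windows. Windows were at hand for 6 of the 8 members, 14 in all. A match is a string of letters and not a measured binding site.

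Tsc22d3 was spread over all classes. It stood at 221 CPM in endothelial-like cells, 196 in B-cell-like, 153 in border-macrophage-like, 122 in pericyte-like, 120 in plasma-cell-like, 115 in neutrophil-like, 94.9 in astrocyte-like, 87.1 in T-cell-like and 82.4 in microglia-like cells. Endothelial-like libraries, at 185 to 234 CPM, overlapped border-macrophage-like ones, at 106 to 216, and T-cell-like libraries, at 65.6 to 123, overlapped microglia-like ones, at 70.7 to 125. Zbtb16 encodes PLZF, a zinc finger repressor that is induced by glucocorticoids in many tissues and also directs innate-like T cells. It was found at 76.0 CPM in astrocyte-like and 74.7 in endothelial-like cells, at 43.4 in T-cell-like, 40.0 in pericyte-like, 25.5 in border-macrophage-like and 15.7 in neutrophil-like cells. B-cell-like and microglia-like cells were at 1.03 and 0.661 CPM, and plasma-cell-like cells had no UMI. Microglia-like libraries held 6, 7, 6 and 6 Zbtb16 UMIs, and endothelial-like libraries, at 61.5 to 121 CPM, all lay above the T-cell-like ones, at 15.8 to 57.7.

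Cdkn1a encodes p21, an inhibitor of cyclin-dependent kinases that is induced by p53 as well as by glucocorticoids. Endothelial-like cells led at 653 CPM, with libraries from 449 to 736 that all lay above those of every other large class. Pericyte-like cells held 312 CPM, astrocyte-like cells 152, border-macrophage-like cells 141 and neutrophil-like cells 94.5. B-cell-like cells at 35.99, microglia-like cells at 23.8, T-cell-like cells at 19.6 and plasma-cell-like cells at 2.44 CPM were lowest. The pooled pericyte-like value rests on the antibody libraries, since by library it was 62.2, 84.95, 312 and 348 CPM from 10, 13, 56 and 90 cells, below border-macrophage-like cells in both isotype libraries. Libraries of microglia-like cells, at 17.5 to 30.1 CPM, overlapped T-cell-like ones, at 9.22 to 31.7.

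The metallothionein genes are neighbours on chromosome 8, Mt2 at chr8:94172618-94173567 and Mt1 at chr8:94178883-94180327 in RefSeq's annotation of GRCm38.p6. Mt1 was highest in astrocyte-like cells at 2013 CPM, followed by endothelial-like cells at 577, border-macrophage-like cells at 321 and pericyte-like cells at 264. Plasma-cell-like cells held 164 CPM, neutrophil-like cells 110, microglia-like cells 101, B-cell-like cells 39.1 and T-cell-like cells 10.1. Mt2 had the same 2 classes on top, astrocyte-like at 254 CPM and endothelial-like at 109, but parted from Mt1 in macrophages: pericyte-like cells held 53.7 CPM, neutrophil-like 42.0 and plasma-cell-like 22.0, while border-macrophage-like cells held 4.78, B-cell-like 3.09, microglia-like 2.01 and T-cell-like 0.611. Mt1 libraries of endothelial-like cells, at 437 to 607 CPM, overlapped those of border-macrophage-like cells, at 272 to 499, and for Mt2 the endothelial-like libraries, at 80.7 to 118 CPM, all lay above the border-macrophage-like ones, at 2.43 to 11.2. Another annotated gene overlaps an exon of Mt2 on the opposite strand, and the strand setting of the counting is not given in the sources used here.

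Sequence upstream of an annotated start of each metallothionein gene is shown because both carry matches to the letters bound by MTF1, TGCACNC and TGCGCNC, searched on both strands; matches are in capitals and the plus strand is written. Mt2 is given over the 250 bases before its start, at chr8:94172368-94172617, and Mt1 around the match closest before the start that the RefSeq promoter table uses, at chr8:94179051-94179080. That Mt1 start lies inside the gene span given above, which begins further upstream, so the printed Mt1 stretch is within that span.
Mt2: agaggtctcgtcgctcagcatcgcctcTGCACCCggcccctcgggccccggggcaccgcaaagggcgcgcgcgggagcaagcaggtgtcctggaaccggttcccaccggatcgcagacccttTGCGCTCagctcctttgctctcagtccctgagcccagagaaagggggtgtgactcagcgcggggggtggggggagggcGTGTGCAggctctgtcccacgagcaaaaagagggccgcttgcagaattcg
Mt1: ggggcggtcccgctgTGCACACtggcgctc
With the bases after the start, the Mt2 window held 4 matches and the Mt1 window 3. At least 1 match was in 25.7% of the 32851 windows, at least 3 in 1.97% and at least 4 in 0.518%. Windows of Fkbp5 and Cdkn1a held none of the motifs searched, and 1 of the Tsc22d3 windows held a single half-site.

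**Figure D1:**
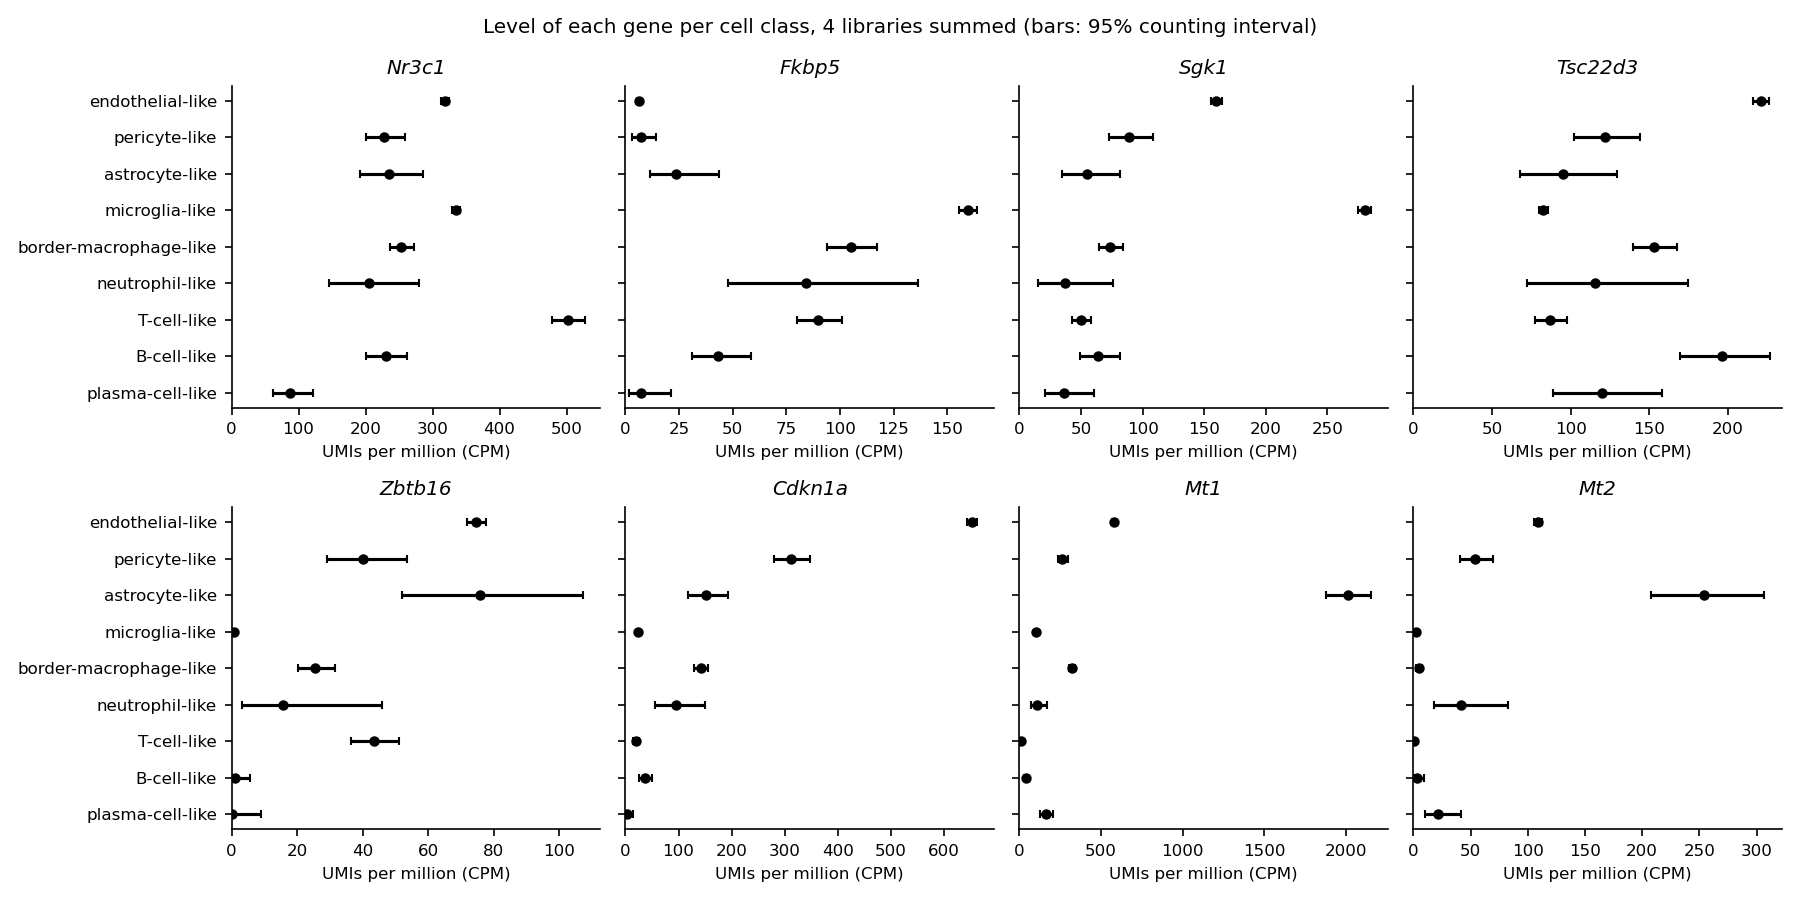
Level of each of the 8 genes (CPM, linear axis from 0) in 9 marker-defined cell classes, all libraries pooled, with exact Poisson intervals for counting error. Metallothioneins peak in astrocyte-like cells (Mt1 at 2013 CPM), Cdkn1a in endothelial-like cells (653 CPM), and Fkbp5 in microglia-like cells (160 CPM).

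3 comparisons follow from the design: stroke against sham, both with isotype antibody, and each blocking antibody against isotype after stroke. The last 2 share the stroke library with isotype as control, which is also the numerator of the first, so they are not independent and are set side by side only. Ratios are log2 of CPM with 1 CPM added to each side. A gene was called different where the 2 libraries held at least 50 UMIs, the ratio was at least 1.5-fold and its counting interval excluded 0. The minimum of 50 UMIs left all 8 members in endothelial-like cells and 6 of 8 in microglia-like cells, where Mt2 and Zbtb16 were too low. A call is a difference between 2 libraries and not between treatments tested over animals.

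**Figure D2:**
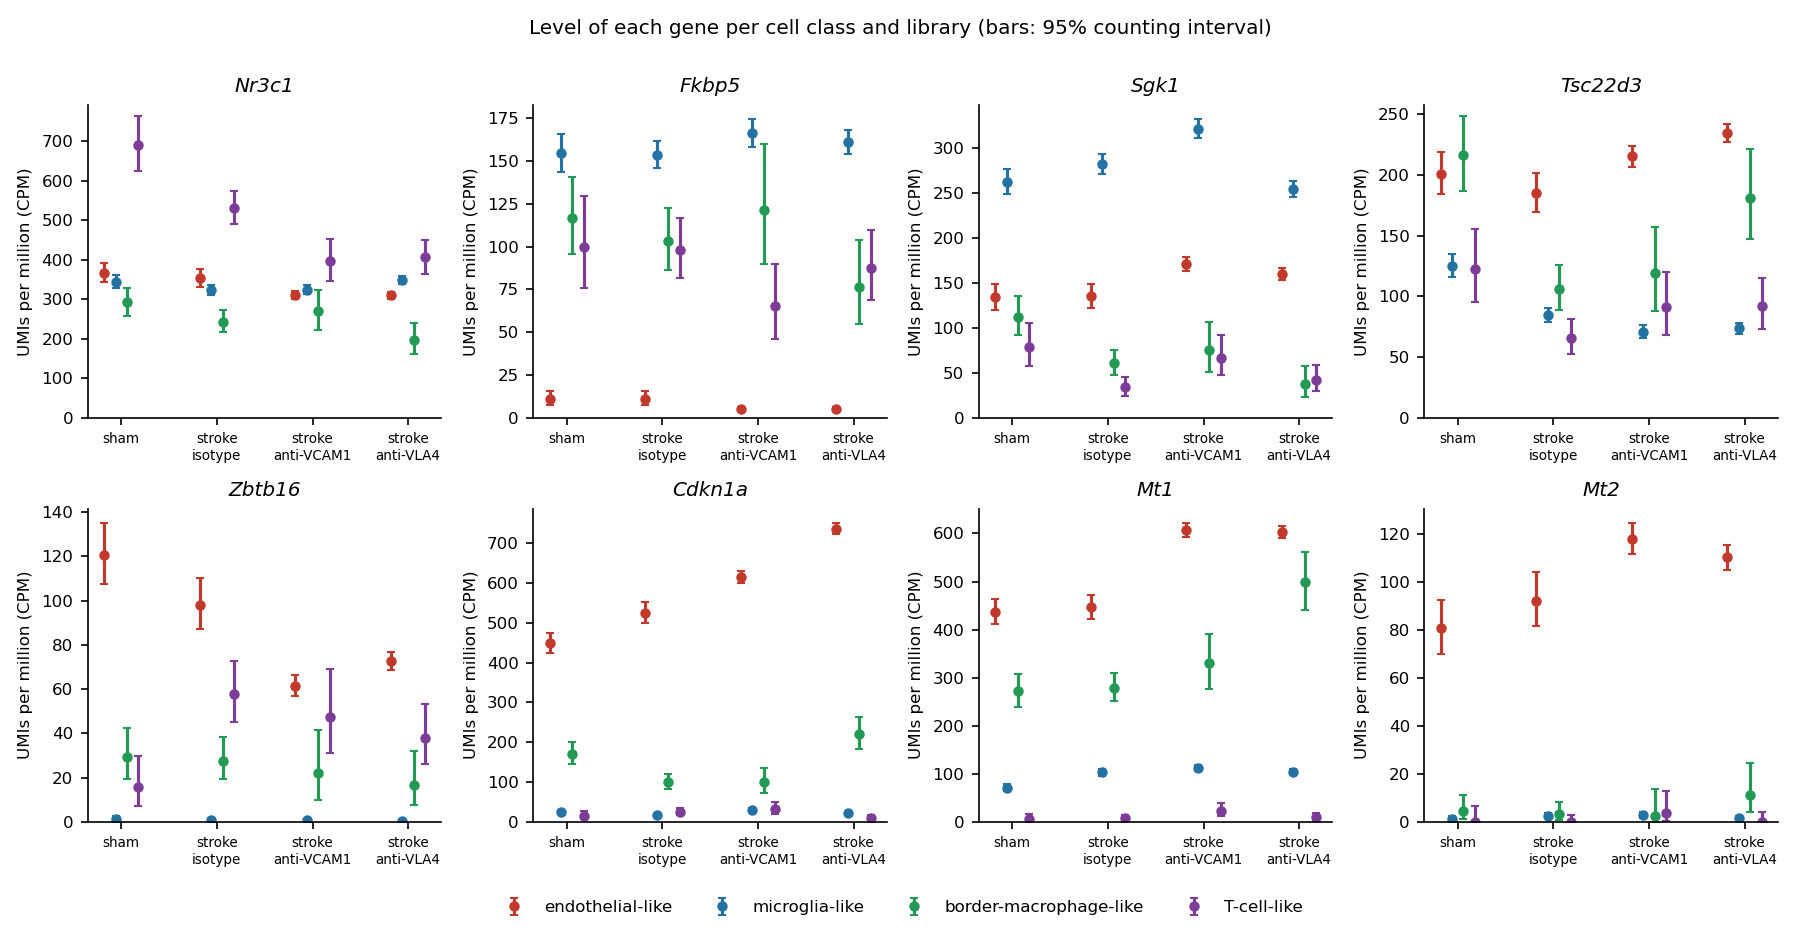
Level of each gene (CPM) in the 4 libraries for endothelial-like, microglia-like, border-macrophage-like and T-cell-like cells, 1 point per library with exact Poisson intervals for counting error. Endothelial Mt1 and Cdkn1a are higher in the antibody libraries (Mt1 at 607 and 603 CPM, Cdkn1a at 615 and 736) than in stroke with isotype (447 and 525), and Tsc22d3 of microglia-like cells is highest in the sham library (125 CPM).

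In endothelial-like cells, stroke with isotype and sham differed little in the 8 genes, and no member was called. Of 8895 genes tested in this comparison, 2.25% were called higher and 2.17% lower. The members' median log2 ratio was 0.02, with 5 of 8 above 0, against −0.02 over all genes tested. Cdkn1a had 449 CPM in sham and 525 in stroke, a log2 ratio of 0.23 (0.11 to 0.34). Zbtb16 had 121 and 98.1 CPM, a log2 ratio of −0.30 (−0.54 to −0.06). For the receptor gene and the other targets the libraries were close: Nr3c1 had 367 and 353 CPM, Fkbp5 11.0 and 11.1, Sgk1 134 and 135, Tsc22d3 201 and 185. Metallothionein levels were 437 and 447 CPM for Mt1 and 80.7 and 92.2 for Mt2, and both counting intervals included 0.

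After stroke, endothelial-like cells of the 2 antibody libraries held more metallothionein, Cdkn1a, Tsc22d3 and Sgk1 RNA and less Fkbp5 and Zbtb16 RNA than those with isotype, with most differences under 1.5-fold. Dissociation-response genes, a list of 22, also summed above isotype in these cells, at 8725, 10970 and 11250 CPM. Of the 22 ratios, 17 and 18 were above 0, with medians of 0.23 and 0.25. Called were 1 higher and 2 lower with anti-VCAM1, and 4 higher and 2 lower with anti-VLA4 (shares over all genes follow). The 2 lower were Fos (−0.78 and −0.67) and Fosb (−1.27 and −1.005) in both. The part of this list in the members' ratios was not tested. With anti-VCAM1, 2 of 8 members were called, both lower, where 5.59% of 10500 genes tested were called lower and 1.43% higher. With anti-VLA4, 1 of 8 was called, lower, where 6.77% of 10829 genes were called lower and 1.61% higher. The members' median log2 ratios were 0.22 and 0.25, against −0.05 and −0.07 over all genes tested.

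The receptor gene stood at 353 CPM with isotype, 311 with anti-VCAM1 and 310 with anti-VLA4, log2 ratios of −0.18 (−0.29 to −0.08) and −0.19 (−0.29 to −0.09). Both antibody libraries were below the isotype library, by less than the 1.5-fold rule. Fkbp5 was called lower in each, at 11.0, 11.1, 5.13 and 5.31 CPM over the 4 libraries, from 28, 32, 59 and 84 UMIs. Its log2 ratio was −0.98 (−1.76 to −0.45) for the anti-VCAM1 library and −0.94 (−1.67 to −0.43) for the anti-VLA4 library. This rests on few molecules. Without the 10 cells with most Fkbp5 UMIs in each library the ratios were −0.36 and −0.20. Those 10 cells held 59.4% of the UMIs with isotype and 33.9% and 26.2% with the antibodies, whose libraries have more cells. Their removal thus takes more from the isotype library and by itself moves the ratio upwards. With every cell thinned to 1000 UMIs the ratios turned to 0.35 and 0.62, where only 3 cells of the isotype library still held a UMI. Microglial markers were highest in the endothelial-like cells of stroke with isotype, at 337 CPM, and without cells holding at least 3 microglial markers Fkbp5 was at 11.0, 9.66, 5.06 and 5.37 CPM.

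Sgk1 had 135 CPM with isotype, 171 with anti-VCAM1 and 160 with anti-VLA4, log2 ratios of 0.34 (0.18 to 0.50) and 0.24 (0.09 to 0.40). Tsc22d3 had 185, 215 and 234 CPM, log2 ratios of 0.22 (0.08 to 0.35) and 0.34 (0.21 to 0.47). Both kinase and GILZ genes were thus above the isotype library by less than 1.5-fold. Zbtb16, the repressor gene, was at 98.1 CPM with isotype and lower with the antibodies, at 61.5 and 72.7. It was called lower with anti-VCAM1, log2 ratio −0.67 (−0.88 to −0.47), and was not past the rule with anti-VLA4, at −0.43 (−0.62 to −0.24). The anti-VCAM1 call was lost with TMM scaling, at −0.53, and with the clusters weighted equally, at −0.42.

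Cdkn1a was at 525 CPM with isotype, 615 with anti-VCAM1 and 736 with anti-VLA4. Its log2 ratios were 0.23 (0.15 to 0.31) and 0.49 (0.41 to 0.57), and TMM scaling brought the second past 1.5-fold, at 0.635. Mt1 was at 447, 607 and 603 CPM, log2 ratios of 0.44 (0.36 to 0.53) and 0.43 (0.35 to 0.52). Mt2 was at 92.2, 118 and 110 CPM, log2 ratios of 0.35 (0.16 to 0.55) and 0.26 (0.07 to 0.45), which in thinned cells were 0.81 and 0.65, past 1.5-fold. For these 3 genes both antibody libraries lay above both isotype libraries, and the sham and stroke isotype libraries were close to each other for the metallothioneins. Astrocyte markers, the class richest in metallothionein, summed to 38.4, 49.4, 41.0 and 44.9 CPM in endothelial-like cells, and Aqp4, their water channel gene, had 0, 0, 1 and 1 UMIs. Pericyte markers were at 127, 127, 229 and 230 CPM, and their part was not tested.

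A larger share of endothelial-like cells carried these RNAs in the antibody libraries. With each cell thinned to 1000 UMIs, Mt1 was detected in 28.2%, 28.3%, 38.3% and 38.2% of endothelial-like cells, and Cdkn1a in 32.2%, 35.4%, 41.6% and 47.8%. The share with Zbtb16 went the other way, at 10.1%, 10.3%, 5.95% and 6.51%. Thinning left out 16, 37, 78 and 81 shallower cells; unthinned, Mt1 was found in 55.5%, 56.2%, 67.9% and 68.0% of cells at median depths of 3788.5 to 4371.5 UMIs. T-cell-like cells, thinned the same way, held Mt1 in 0.809% and microglia-like cells held Cdkn1a in 1.82% and Zbtb16 in 0.0316% of cells over all libraries. The 2 antibody libraries lay together and apart from the 2 isotype libraries for Mt1 and Zbtb16.

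**Figure D3:**
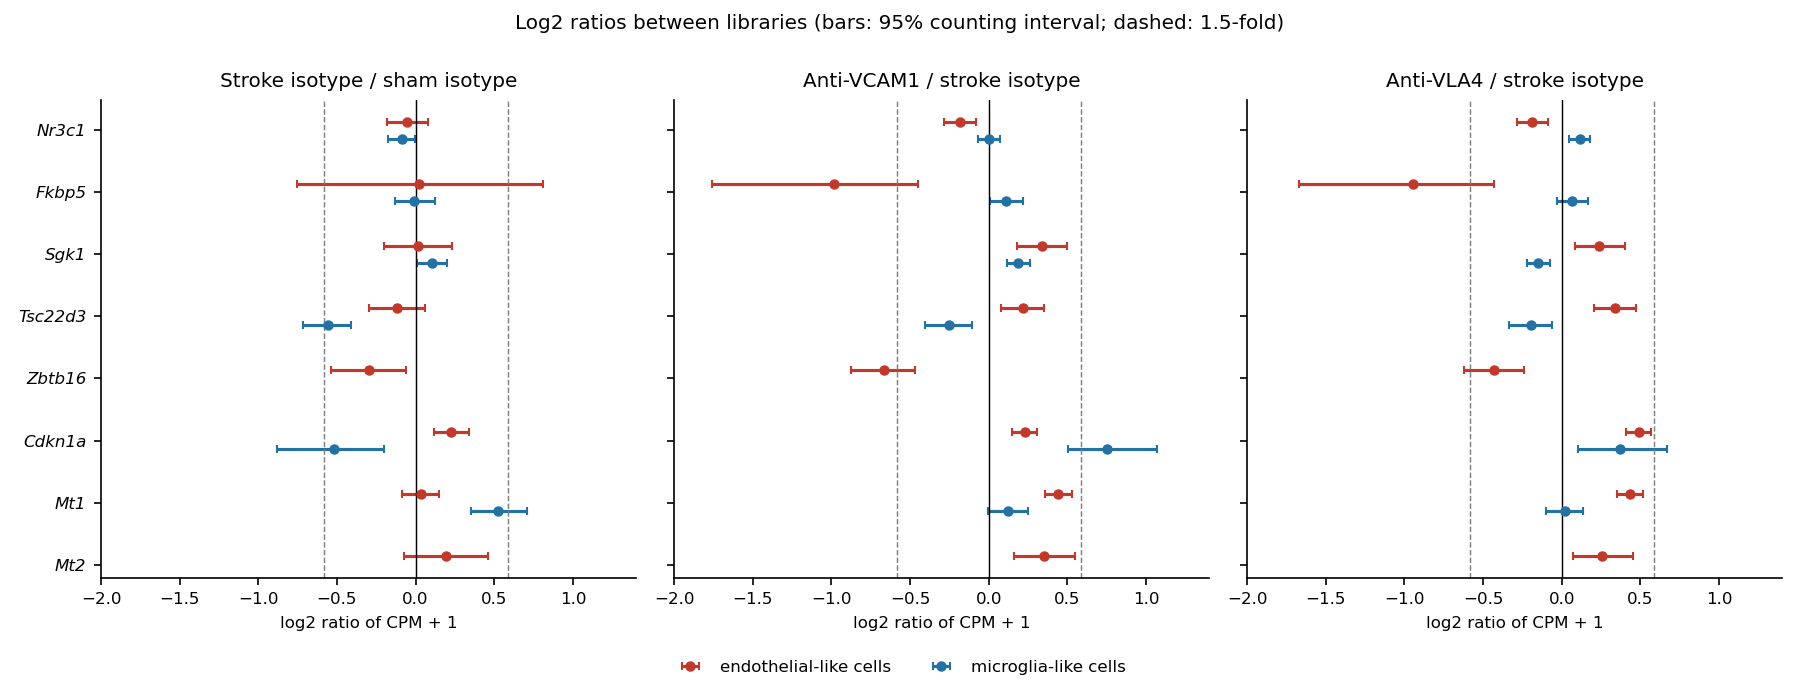
Log2 ratio of each gene (pseudocount 1 CPM) in endothelial-like and microglia-like cells for the 3 comparisons, with conditional binomial intervals for counting error and lines at 1.5-fold. Fkbp5 in endothelial-like cells lies past the line at −0.98 and −0.94 in the antibody comparisons, and Cdkn1a in microglia-like cells at 0.75 with anti-VCAM1.

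Gene span and cluster makeup moved with these endothelial ratios. In the antibody comparisons the log2 ratio over all genes was lower for genes that span more of the genome, from 0.29 at 1 kb to −0.25 at 100 kb in the first and from 0.27 to −0.27 in the second. Both metallothionein genes are short, and with that trend removed Mt1 was at 0.15 and 0.16, and Mt2 at 0.06 and −0.02. Removing it also brought the long gene Zbtb16 to −0.32 and −0.05. The Nr3c1 ratio turned from negative to 0.08 and 0.10, and the anti-VCAM1 ratio of Sgk1 reached 0.62, past 1.5-fold. The part of gene span in the results was not tested beyond this removal.

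The 7 endothelial-like clusters differed in the share of UMIs from Malat1, a nuclear RNA, and cluster 6, low in Malat1, and cluster 0, high in it, differed in every member named next. Cluster 6, with Malat1 at 0.435% of UMIs, held 943 CPM of Mt1, 177 of Mt2, 886 of Cdkn1a and 325 of Tsc22d3, with Zbtb16 at 14.8. Cluster 0, with Malat1 at 3.03%, held 452 CPM of Mt1, 88.5 of Mt2, 481 of Cdkn1a and 159 of Tsc22d3, with Zbtb16 at 122. The members did not follow Malat1 over all 7 clusters: cluster 14, lowest in Malat1 at 0.237%, held 379 CPM of Mt1, 312 of Cdkn1a and 120 of Tsc22d3, and cluster 13, at 2.49%, held 782 CPM of Mt1. Cluster 6 made up 2.54%, 6.48%, 21.0% and 22.6% of endothelial-like cells, and cluster 0 made up 48.5%, 39.5%, 23.9% and 22.0%, so the antibody libraries hold more of cluster 6. With clusters weighted equally in the libraries compared, Cdkn1a was at 0.06 with anti-VCAM1 and 0.31 with anti-VLA4, while Mt1 was at 0.35 and 0.33. Weighted the same way, Tsc22d3 was at 0.08 and 0.20, and Sgk1 at 0.18 and 0.085.

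**Figure D4:**
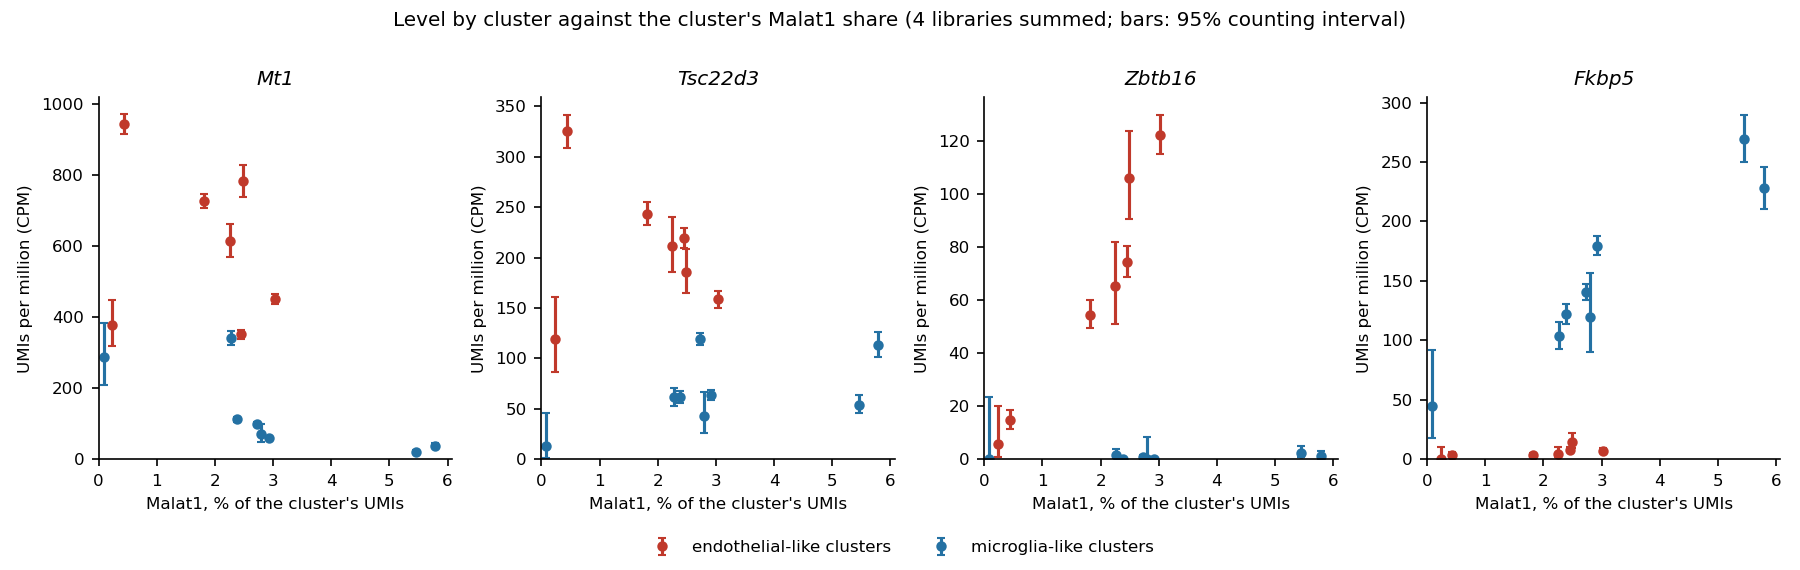
Level of Mt1, Tsc22d3, Zbtb16 and Fkbp5 (CPM) in each endothelial-like and microglia-like cluster against the cluster's Malat1 share of UMIs (percent), all libraries pooled, 1 point per cluster with exact Poisson intervals for counting error. Among endothelial-like clusters, cluster 6, at 0.435% Malat1, has 943 CPM of Mt1 and 14.8 CPM of Zbtb16, and cluster 0, at 3.03%, has 452 and 122; cluster 14, at 0.237%, has 379 CPM of Mt1.

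Within single clusters the same genes were compared again. Among clusters with at least 30 cells in each library compared and at least 50 UMIs of the gene, Mt1 was above isotype in 6 of 6 with anti-VCAM1, from 0.02 to 1.01 on the log2 scale, with 4 counting intervals off 0. With anti-VLA4 it was above isotype in 6 of 6, from 0.03 to 1.24, with 3 intervals off 0. Cdkn1a was above isotype in 6 of 6 clusters with anti-VLA4, from 0.19 to 1.15, with all 6 intervals off 0. With anti-VCAM1 it was above isotype in 4 of 6, from −0.02 to 0.91, with 1 interval off 0, that of cluster 13. Tsc22d3 was above isotype in 5 of 6 clusters with each antibody, with 0 intervals above 0 for anti-VCAM1 and 2 for anti-VLA4. Sgk1 was above isotype in 5 of 6 clusters with anti-VCAM1 and 4 of 6 with anti-VLA4, with 1 and 0 intervals above 0. Zbtb16 was below isotype in 3 of 4 clusters with anti-VCAM1, from −1.58 to 0.18. Cluster 13, of 268 cells, showed the widest Mt1 gap of those plotted, at 460, 421, 846 and 991 CPM, beside Cdkn1a at 216, 201, 379 and 449 CPM.

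**Figure D5:**
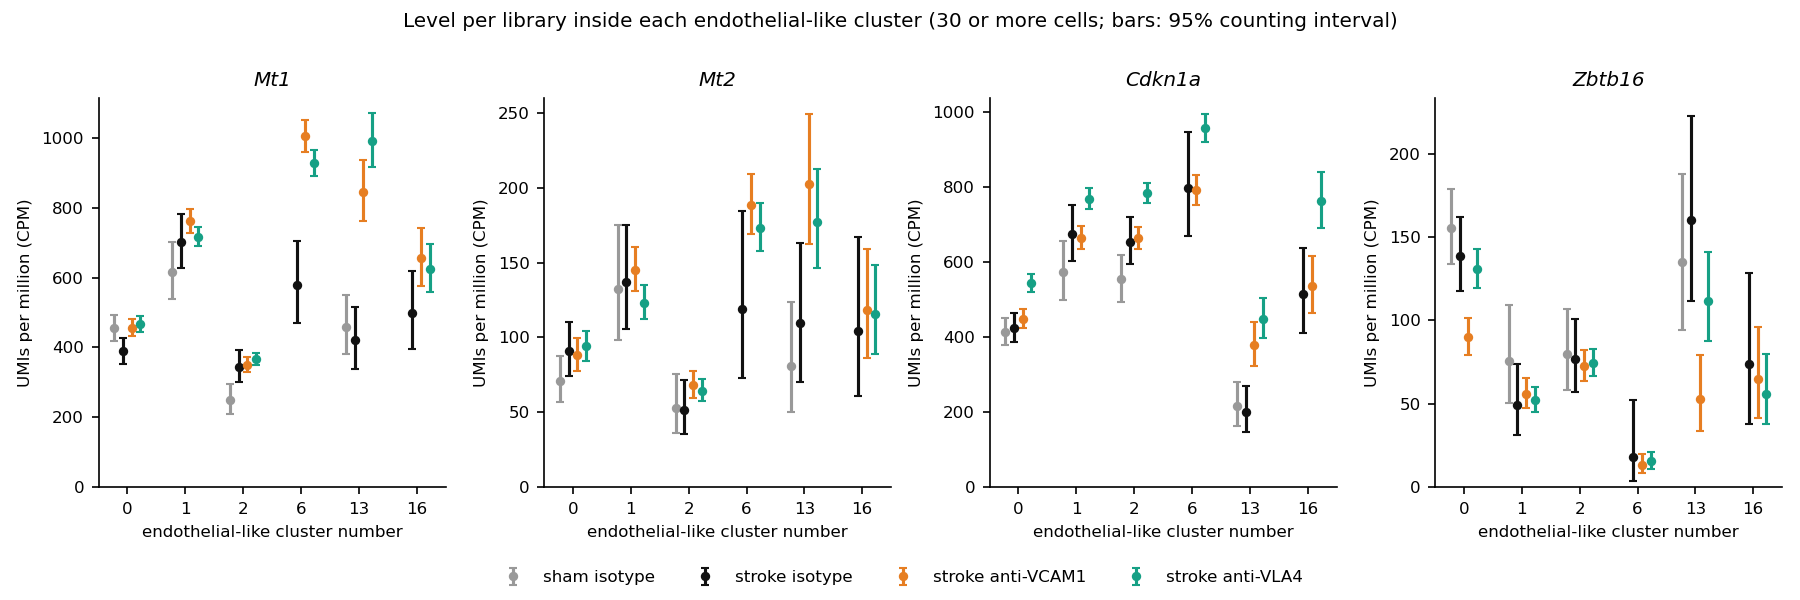
Level of Mt1, Mt2, Cdkn1a and Zbtb16 (CPM) within endothelial-like clusters, 1 point per cluster and library of at least 30 cells, with exact Poisson intervals for counting error. In cluster 13 Mt1 is at 460 and 421 CPM in the isotype libraries and at 846 and 991 CPM in the antibody libraries.

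Microglia-like cells gave another picture: the receptor gene and Fkbp5 were level, Tsc22d3 was lower and Mt1 higher in the stroke libraries than in sham, and the antibody libraries differed from isotype in few members. In the stroke comparison 0 of 6 members were called, where 1.91% of 10666 genes were called higher and 1.68% lower. With anti-VCAM1, 1 of 6 was called, higher, where 1.08% of 11158 genes were called higher and 1.08% lower. With anti-VLA4, 0 of 6 were called, where 1.44% of 11394 genes were called higher and 1.95% lower. Median log2 ratios of the 6 were −0.05, 0.12 and 0.04, against −0.04, 0.03 and 0.06 over all genes.

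Nr3c1 stood at 344, 323, 323 and 350 CPM, and Fkbp5 at 154.5, 153.7, 166 and 161. The libraries lay close together for the receptor and for its co-chaperone. Tsc22d3 stood at 125, 84.5, 70.7 and 73.5 CPM, with a stroke log2 ratio of −0.56 (−0.72 to −0.41), just inside 1.5-fold. It was below sham in 4 of 4 clusters that could be compared, from −0.84 to −0.31, with 2 intervals off 0. Thinned cells gave −0.72, and cells named singly, without clusters, −0.61, both past the rule. Genes known to respond to tissue dissociation summed to 18920, 15820, 12470 and 11000 CPM in the same cells. The list was mixed for stroke over sham, with 8 of 22 ratios above 0 and a median of −0.24. There 4 genes were called higher, Hspa1a, Hspa1b, Hspb1 and Hsph1, and 1 lower, Zfp36. Over all genes 1.91% were called higher and 1.68% lower. The part of this list in the Tsc22d3 result was not tested.

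Sgk1 was at 263, 282, 322 and 254 CPM, so anti-VCAM1 was the highest library and anti-VLA4 the lowest. Its log2 ratio was 0.19 (0.11 to 0.26) in the former and −0.15 (−0.22 to −0.08) in the latter. The anti-VCAM1 excess was present in 6 of 6 clusters, from 0.17 to 0.77, all 6 with intervals off 0. With anti-VLA4, 3 of 6 clusters were higher and 3 lower, from −0.32 to 0.71, and with clusters weighted equally the ratio was 0.01. Cdkn1a was at 25.5, 17.5, 30.1 and 22.9 CPM. It was called higher with anti-VCAM1, log2 ratio 0.75 (0.50 to 1.07), and was at 0.37 (0.11 to 0.67) with anti-VLA4 and −0.52 (−0.88 to −0.20) for stroke over sham. The library with isotype after stroke was thus the lowest of the 4. Endothelial markers in microglia-like cells summed to 49.6, 49.8, 115 and 130 CPM. Without cells holding at least 3 endothelial markers they summed to 48.1, 47.4, 75.2 and 82.2 CPM. The Cdkn1a ratios were then 0.75 with anti-VCAM1 and 0.32 with anti-VLA4. The 10 cells with most Cdkn1a UMIs held 43.9%, 29.0%, 35.6% and 32.0% of them. A UMI was found in 8.70%, 6.78%, 6.78% and 5.78% of microglia-like cells, the same share with isotype and with anti-VCAM1, at median depths of 5196.5 to 7339.5 UMIs. Thinned cells gave 2.18%, 1.74%, 2.07% and 1.57%, close to the 1.46% of T-cell-like cells, so detection at this depth did not separate the libraries. Naming cells singly, without clusters, brought the anti-VCAM1 ratio to 0.38, and the call was lost.

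Mt1 in microglia-like cells was at 71.2, 103, 112 and 104 CPM. All 3 stroke libraries lay above sham, the isotype one with a log2 ratio of 0.52 (0.35 to 0.71), and the antibody ratios were 0.12 and 0.02. It was above sham in 4 of 4 clusters compared, from 0.02 to 1.02, with 2 intervals off 0, and with clusters weighted equally the ratio was 0.24. Mt2 had 5, 21, 27 and 23 UMIs, or 0.98, 2.27, 2.68 and 1.72 CPM, too few for a ratio. Cluster 11, led by Trem2, Ctsd and C1qa and holding 6, 86, 117 and 172 cells, had 341 CPM of Mt1, 74.5 of Cdkn1a and 10.9 of Mt2. Clusters 7 and 8, with Malat1 at 5.45% and 5.79% of UMIs, had 20.2 and 37.8 CPM of Mt1 and 269 and 228 CPM of Fkbp5.

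Set side by side, the Mt1 ratio for stroke was 0.03 in endothelial-like and 0.52 in microglia-like cells, and for anti-VCAM1 it was 0.44 and 0.12. With clusters weighted equally the stroke ratios were −0.04 and 0.24. These differences between classes were not tested over animals.

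Border-macrophage-like cells, which line vessels and meninges, held less Tsc22d3, Sgk1 and Cdkn1a RNA in stroke with isotype than in sham. In the stroke comparison 3 of the 7 members tested were called lower, where 4.93% of genes were called lower and 2.90% higher. Tsc22d3 stood at 216, 106, 119 and 181 CPM, log2 ratio −1.02 (−1.35 to −0.70). Cdkn1a stood at 171, 100, 99.5 and 220 CPM, −0.76 (−1.11 to −0.42). Sgk1 stood at 112, 60.9, 75.3 and 37.4 CPM, −0.87 (−1.33 to −0.44). Sham was thus above stroke with isotype in all 3 genes, while the receptor gene, at 293, 243, 269 and 198 CPM, and Fkbp5, at 117, 104, 121 and 76.6 CPM, were within 1.5-fold. The Cdkn1a ratio turned to 0.21 in thinned cells, and the Sgk1 ratio to 1.64 where cells took their class singly from their own markers. The 10 sham cells with most UMIs of a gene held 79.8% of Sgk1, 50.6% of Cdkn1a and 41.0% of Tsc22d3 UMIs. In stroke with isotype 10 such cells held 66.2%, 44.9% and 37.3%. The counting intervals do not cover this spread between cells.

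With anti-VCAM1, 0 of 6 members were called in border-macrophage-like cells, where 3.70% of genes were called higher and 3.61% lower. With anti-VLA4, 3 of 6 were called higher, where 5.23% were called higher and 7.27% lower. Those were Cdkn1a at 1.13 (0.76 to 1.51), Mt1 at 0.84 (0.60 to 1.07) from levels of 272, 279, 330 and 499 CPM, and Tsc22d3 at 0.77 (0.38 to 1.16). Endothelial markers in these cells summed to 146, 175, 527 and 2454 CPM, so the anti-VLA4 library, of 92 cells, held most. Without cells holding at least 3 endothelial markers (1, 5, 5 and 10 cells) those markers summed to 143, 162, 214 and 209 CPM, and the anti-VLA4 ratios were 0.61 for Cdkn1a, 0.59 for Mt1 and 0.91 for Tsc22d3. In the anti-VLA4 library the 10 cells with most UMIs of a gene held 67.8% of Cdkn1a, 61.8% of Mt1 and 40.2% of Tsc22d3 UMIs. Each ratio fell under 1.5-fold in another setting: Cdkn1a to 0.42 in thinned cells, and Mt1 to 0.36 and Tsc22d3 to 0.31 with cells named singly. The highest values under other settings were 1.17 for Cdkn1a, 1.04 for Mt1 and 1.30 for Tsc22d3. Mt2 had 4, 4, 1 and 6 UMIs and Zbtb16 27, 35, 9 and 9.

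T-cell-like cells carried the highest Nr3c1 level of the large classes, at 691, 531, 396 and 406 CPM, with sham on top. Stroke over sham gave a log2 ratio of −0.38 (−0.56 to −0.20). Over isotype, anti-VCAM1 gave −0.42 (−0.65 to −0.20) and anti-VLA4 gave −0.39 (−0.58 to −0.20). None of these Nr3c1 ratios was past the rule, and 10 cells held 46.7% of the Nr3c1 UMIs of the sham library. The stroke ratio was −0.02 in thinned cells and −0.61, past 1.5-fold, with cells named singly. For stroke, 1 of the 5 members tested was called higher and 2 lower, where 4.24% of genes were called higher and 13.8% lower. Sgk1, at 78.9, 34.0, 66.9 and 42.6 CPM, was called lower at −1.19, and Tsc22d3, at 123, 65.6, 91.5 and 92.2 CPM, at −0.89. Sgk1 was called higher with anti-VCAM1, at 0.96 (0.31 to 1.64), where 4.43% of genes were called higher and 5.52% lower. With anti-VLA4, 0 of 5 were called, where 2.75% were called higher and 8.33% lower.

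Microglial markers in T-cell-like cells summed to 3186, 997, 1962 and 409 CPM, and Sgk1 is highest in microglia. Cells holding at least 3 endothelial or at least 3 microglial markers (8, 14, 13 and 11 cells) were left out in another setting. There Sgk1 was at 41.4, 26.7, 33.5 and 30.4 CPM and Tsc22d3 at 95.04, 63.1, 89.3 and 92.6 CPM. Stroke ratios were then −0.62 for Sgk1 and −0.58 for Tsc22d3, and the anti-VCAM1 ratio of Sgk1 was 0.32. In thinned cells the stroke ratio of Sgk1 was 0.41.

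Zbtb16 of T-cell-like cells was concentrated in a small cluster in some libraries. Its levels were 15.8, 57.7, 47.5 and 38.0 CPM, from 9, 73, 27 and 33 UMIs, and it was called higher in stroke than in sham, at 1.81 (0.87 to 3.06). The 10 cells with most UMIs held 91.8% of those in stroke with isotype. Cluster 22, of 46 cells (2, 20, 10 and 14) with Cxcr6, Icos, Trdc and Cd163l1 among its leading genes, held 301 CPM of Zbtb16 (239 to 375), against 20.6 in the other T-cell-like cluster. Trdc encodes the constant region of the T cell receptor delta chain, and PLZF is known from innate-like T cells. That cluster held 0 of 9, 47 of 73, 5 of 27 and 28 of 33 of the Zbtb16 UMIs. Without it the stroke ratio was 0.44, the anti-VCAM1 ratio went from −0.28 to 0.88 and the anti-VLA4 ratio from −0.59 to −1.72. Mt1 was low here, with 3, 9, 13 and 8 UMIs, and Mt2 had 0, 0, 2 and 0.

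The stroke ratio of Tsc22d3 was −0.12 in endothelial-like, −0.56 in microglia-like, −1.02 in border-macrophage-like and −0.89 in T-cell-like cells. These 4 values share the same 2 libraries and so are not independent. Dissociation-response genes also summed higher in the sham library than in stroke with isotype. The sums were 9813 against 8725 CPM in endothelial-like, 20630 against 17120 in border-macrophage-like and 8179 against 5459 in T-cell-like cells. Of those tested, 6 of 22, 5 of 21 and 8 of 20 were called lower in stroke, where 2.17%, 4.93% and 13.8% of all genes were. Called higher were 0, 2 and 1, where 2.25%, 2.90% and 4.24% of all genes were. The part of this list was not tested.

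Other targets of the receptor, a list of 20 genes, had few calls in endothelial-like cells. For stroke, 0 of 12 tested were higher and 1 lower, with a median log2 ratio of −0.003, where 2.17% of all genes were lower. The 1 was Dusp1, a phosphatase of MAP kinases, at 299.6 CPM in sham and 170 in stroke. Dusp1 is also on the dissociation-response list, which holds for its other calls below. In the same cells and comparison 6 of 22 genes of that list were called lower, Dusp1 among them. With anti-VCAM1, 1 of 15 was called higher and 2 lower, median −0.07, where 1.43% and 5.59% of all genes were. With anti-VLA4 the counts were again 1 and 2 of 15, median −0.02, where 1.61% and 6.77% of all genes were. In both, the gene called higher was Cebpd, a transcription factor of the acute response, at 64.0 CPM with isotype, 118 with anti-VCAM1 and 111 with anti-VLA4, log2 ratios of 0.87 and 0.78. The genes called lower, named after their values were seen, were Errfi1, at 14.6 CPM with isotype and 7.48 and 6.51 with the antibodies, and Rgs2, a regulator of G protein signalling, at 6.26, 2.87 and 3.10 CPM. In microglia-like cells none of 13 tested was called for stroke, with 0 of 13 above 0 and a median of −0.17 against −0.04 over all genes. With anti-VCAM1, 1 of 14 was called higher and 0 lower, where 1.08% of all genes were higher and 1.08% lower. This was Ddit4, at 6.16 and 10.0 CPM, from 57 and 101 UMIs. With anti-VLA4, 0 of 14 were called higher and 3 lower, where 1.44% of all genes were higher and 1.95% lower. Those 3 were Nfkbia, the inhibitor of NF-kappaB, at 666 and 388 CPM (log2 ratio −0.78), Bcl6 at −0.77 and Dusp1 at −0.66. Of the dissociation-response genes, 7 of 22 were called lower in this comparison, Dusp1 among them, and 0 higher. Their median log2 ratio was −0.51, and the part of that list was not tested. In border-macrophage-like cells 2 of 10 were called lower for stroke, Dusp1 at −0.96 and Nfkbia at −0.61, where 4.93% of all genes were. In T-cell-like cells 4 of 9 were called lower for stroke, Rgs2, Anxa1, Mertk and Bcl6, from −1.25 to −0.70, where 13.8% of all genes were. Mertk, a phagocyte receptor gene, stood there at 336.5 CPM in sham and 193 in stroke, beside the microglial markers given above. With anti-VLA4, 3 of 10 were called lower in T-cell-like cells, where 8.33% of all genes were. Those were Per1 (−0.865), Errfi1 (−1.005) and Mertk (−2.11, at 43.8 CPM). In border-macrophage-like cells 1 of 10 was lower with anti-VLA4, Rgs2 at −0.72, where 7.27% of all genes were. None was called higher there, and with anti-VCAM1 none was called in either class.

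Genes that handle the receptor or its hormone, 12 in all, had 10 tested in each of the endothelial-like and microglia-like cells. None was called in endothelial-like cells for stroke or anti-VCAM1, and 2 were lower with anti-VLA4, where 6.77% of all genes were: Nr3c2, the mineralocorticoid receptor gene, at 181 and 111 CPM (−0.70), and the coactivator gene Ncoa2 at 152 and 99.3 CPM (−0.61). None was called in microglia-like cells in any comparison. Metal-handling genes, a list of 15, had 10 or 11 tested in endothelial-like and 14 in microglia-like cells, and none was called in either class. Hmox1, which encodes the haem-degrading enzyme and like the metallothioneins responds to oxidative stress, was at 69.6 CPM in sham and 94.01 in stroke with isotype in microglia-like cells, and at 62.9 and 71.0 with the antibodies. Its log2 ratios were 0.43, −0.57 and −0.40, all within 1.5-fold. In border-macrophage-like cells Hmox1 was called higher with both antibodies, at 80.6 CPM with isotype, 165 with anti-VCAM1 and 166 with anti-VLA4. These levels came from 102, 68 and 89 UMIs. Of this list 2 of 6 tested were called higher with anti-VCAM1 and 2 of 7 with anti-VLA4, where 3.70% and 5.23% of all genes were. The others were Slc40a1 with anti-VCAM1 (0.69) and Slc39a10 with anti-VLA4 (1.02). Endothelial markers rose in the same libraries, as given above, and their part was not tested. The gene of the metal-sensing factor, Mtf1, in endothelial-like cells was at 23.7 CPM with isotype and 31.4 with anti-VLA4, log2 ratio 0.39 (0.04 to 0.79).

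Targets of p53, which also regulates Cdkn1a, were set beside it as a list of 12 genes. In endothelial-like cells none was called for stroke or anti-VCAM1, and with anti-VLA4 1 of 10 was higher, where 1.61% of all genes were. This was Plk2, a polo-like kinase gene, at 135 CPM with isotype, 199 with anti-VCAM1 and 225 with anti-VLA4, log2 ratios of 0.56 and 0.74. In microglia-like cells the gene called was Gdf15, a stress-induced cytokine gene, in each case: 1 of 10 higher for stroke, at 1.57 CPM in sham and 5.73 in stroke with isotype, and 1 of 11 lower with anti-VLA4, at 1.79 CPM, where 1.91% of all genes were higher and 1.95% lower. None was called with anti-VCAM1.

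Mt2 was detected more often in endothelial-like cells that also held Mt1. With cells thinned to 1000 UMIs, Mt2 was detected in 13.3% of cells with an Mt1 UMI and 6.51% of cells without one in sham, 15.0% and 3.43% in stroke with isotype, 17.8% and 6.97% with anti-VCAM1, and 16.2% and 6.65% with anti-VLA4. The sham counting intervals overlapped, at 8.28 to 19.71% and 4.26 to 9.46%, and those of the other libraries did not. Over all libraries, 0.0789% of microglia-like cells held an Mt2 UMI after the same thinning. In endothelial-like cells other pairs of members were compared the same way. Sgk1 was detected in 10.59%, 13.13%, 15.96% and 14.14% of cells with Tsc22d3, and in 9.11%, 11.33%, 14.3% and 14.83% of those without it. Tsc22d3 was detected in 18.54%, 13.29%, 20.5% and 19.33% of cells with Mt1, and in 14.84%, 17.35%, 15.49% and 19.3% of those without it. For Sgk1 the intervals overlapped in every library, and for Tsc22d3 in all but anti-VCAM1. Fkbp5 was in too few cells (8, 3, 14 and 24) to be read against Tsc22d3. The shares describe cells within each library.

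Across the 16 combinations of the 4 large classes and 4 libraries, Pearson correlation of log2 levels named the genes whose pattern was most like each member, out of 12043 candidates; points share libraries, depth and class, so these mostly describe class differences. Closest to Fkbp5 were Slc4a7 at 0.992, Aim2 at 0.988 and Cmip at 0.987. Closest to Mt2 was Cav2 at 0.981, to Cdkn1a Vcl at 0.975, to Sgk1 Sparc at 0.971, to Zbtb16 Clec2d at 0.971, to Mt1 Prdx4 at 0.964, to Nr3c1 Smchd1 at 0.953 and to Tsc22d3 Snx3 at 0.894. Among the members, Cdkn1a and Mt2 correlated at 0.93, Mt1 and Mt2 at 0.788, and Fkbp5 and Mt2 at −0.907.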

How the data were processed

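Cortical cells of 4 libraries, 1 per group, were profiled by droplet single-cell RNA-seq (Chromium 3' v3.1, target 10000 cells). The authors deposited unnormalised UMI counts for each gene in each barcode. Cell Ranger 7.0.1 made these counts, per the file headers. The submitters' processing notes name Cell Ranger 6.0.0, Seurat 4.3.0.1, mm10 and GRCh38. The annotation, the strand setting and the treatment of intronic reads are not given in the sources used here. The smallest barcode total was 500 to 510, so a selection of barcodes preceded deposit.

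The rest was computed here with Python 3.11.15, scanpy 1.11.5, scipy 1.17.1, leidenalg 0.10.2, R 4.3.3 and edgeR 4.0.16. Kept cells had 500 or more UMIs, 200 or more genes and no more than 10% mitochondrial UMIs, and Scrublet doublets (9, 24, 58 and 124, at an expected rate of 0.05) were left out. Cells of all libraries were clustered together (2000 variable genes, 30 principal components, 15 neighbours, Leiden resolution 1), with the members and all gene lists among the 204 genes left out of clustering. A cluster was named where at least 3 markers of a class were detected in 25% or more of its cells with a log2 fold of 1 or more, and stayed unnamed with 4 or more markers of a second class. Sums of UMIs over the cells of a class in a library, scaled to CPM, carried exact Poisson intervals. Ratios used a pseudocount of 1 CPM and exact conditional binomial (Clopper-Pearson) intervals, shares of cells exact binomial ones, all at 95% and for counting error only. Genes were called by size (1.5-fold, at least 50 UMIs, interval off 0), since 1 library per group allows no test. The code was tested on simulated counts. From the other lists the text names up to 3 genes with the largest absolute ratio among those with at least 200 UMIs, and further called genes chosen after their values were seen. The members and lists were chosen with earlier results of these data known. Results were recomputed with 15 other settings, and 3 more were added after seeing the data: leaving out shared barcodes, leaving out cells with other classes' markers, and counting cluster 12 as endothelial. The markers of other classes were microglial ones for endothelial-like cells, endothelial ones for microglia-like and border-macrophage-like cells, and both for T-cell-like cells. Promoter windows and coordinates come from RefSeq tables of GRCm38.p6.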

Additional observations from a re-analysis of the deposited data

How the results depend on the processing

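With 1 library per group, no replicate could be left out. No paired analysis was possible because each group has 1 library. In endothelial-like cells the stroke comparison gave 0 calls under every setting that was run. With anti-VCAM1 the count of 2 became 1 with TMM scaling, 1 with clusters weighted equally, 1 with at least 200 UMIs and 0 without the 10 highest cells, which takes a larger share of cells from smaller libraries. The count stayed at 2 with other genes in thinned cells (Zbtb16 and Mt2, the latter higher) and with the span trend removed (Fkbp5 and Sgk1, the latter higher). With anti-VLA4 the count of 1 became 2 with TMM scaling (Fkbp5 and Cdkn1a) and 0 with at least 200 UMIs, and in thinned cells the 1 was Mt2, higher. In microglia-like cells the stroke count of 0 became 1 with cells named singly (Tsc22d3), 1 in thinned cells (Tsc22d3), 1 with the mean of each cell's share (Tsc22d3), 1 without the 10 highest cells (Mt1) and 1 with clusters weighted equally (Cdkn1a). The anti-VCAM1 count of 1 became 0 with cells named singly and 0 in thinned cells, and the anti-VLA4 count of 0 became 1 with clusters weighted equally (Cdkn1a). Except where a setting itself tests fewer genes or cells, the cause was not tested.

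TMM scaling moved all endothelial ratios of the antibody comparisons upwards, Mt1 from 0.44 to 0.57 and from 0.43 to 0.58. The direction turned in thinned cells for endothelial Fkbp5 (0.35 with anti-VCAM1, 0.62 with anti-VLA4), for the stroke ratios of Cdkn1a in border-macrophage-like cells (0.21) and of Sgk1 in T-cell-like cells (0.41), and with cells named singly for the stroke ratio of Sgk1 in border-macrophage-like cells (1.64). Of the ratios tested, 13 of 24 in endothelial-like, 12 of 18 in microglia-like, 8 of 19 in border-macrophage-like and 10 of 15 in T-cell-like cells kept their sign under every setting run. Border-macrophage-like cells were 1 cluster, so settings that weight or drop clusters gave no value there. Low UMI numbers of Fkbp5 in endothelial-like cells, and of Mt2 and Zbtb16 in leukocytes, limit what can be read at this depth.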
